A study of Mus musculus with 13 samples.

Results

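miR-128, miR-218 and miR-153 are neuronal miRNAs that are cut out of introns of protein-coding genes, and their levels were read here from small RNA sequencing of mouse brain. The rows of the hairpins mmu-mir-128-1, mmu-mir-128-2, mmu-mir-218-1, mmu-mir-218-2 and mmu-mir-153 were taken by name, which gave 5 of the 903 hairpins listed, 10 of the 1514 rows of a hairpin with a mature miRNA, and 8 of the 1384 mature miRNAs. The 13 libraries came from hippocampus and prefrontal cortex (PFC) of TgR mice and of FVB/N mice. TgR mice are FVB/N mice that carry a transgene for human AChE-R, the stress-induced readthrough variant of acetylcholinesterase, under the CMV minimal promoter-enhancer, a promoter that is active constitutively and is not specific to neurons. FVB/N is the parent strain and carries no transgene. There were 3 FVB/N and 3 TgR hippocampal libraries and 3 FVB/N and 4 TgR PFC libraries, each from 300 ng of total RNA. The labels give neither the age nor the sex of the sequenced mice, and do not say whether hippocampus and PFC came from the same mice. Small RNA counts hold no measure of the AChE-R transgene itself, so the genotypes could not be checked against it.

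A miRNA hairpin is trimmed to a short duplex, of which the guide arm is loaded into an Argonaute protein and pairs with target mRNAs mainly through its seed, while the passenger arm is mostly degraded. An intronic hairpin can be released from the transcript of its host gene, so that the host promoter may serve both products. miR-128 is among the miRNAs best known from forebrain neurons, where it restrains genes of neuronal excitability and motor activity, miR-218 is known from motor neurons and hippocampal neurons, and miR-153 from the control of vesicle release.

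All 5 hairpins lay on the same strand as their host genes, and none overlapped an exon (GENCODE M21 on GRCm38). The mmu-mir-128-1 hairpin (chr1:128202361-128202430) lay in intron 19 of 26 of R3hdm1, which encodes a protein with an RNA-binding R3H domain. The mmu-mir-128-2 hairpin (chr9:112118636-112118711, minus strand) lay in the penultimate intron of Arpp21, the gene of a cAMP-regulated phosphoprotein of striatal and cortical neurons. Slit2 and Slit3, which encode secreted axon guidance proteins that bind Robo receptors, hosted mmu-mir-218-1 (chr5:48223942-48224051) and mmu-mir-218-2 (chr11:35616816-35616925), each in intron 14 of 35. The mmu-mir-153 hairpin (chr12:117250817-117250885) lay in intron 19 of 22 of Ptprn2, the gene of a transmembrane phosphatase-like protein of dense-core vesicles. Host gene transcripts were not measured in these libraries.

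All 8 mature sequences were found in RefSeq (GRCm38.p6). The guide arms are shown because each represents a separate seed, and the passenger arms of miR-128 and miR-218 because they alone differ between the hairpins. Capitals mark the seed, bases 2 to 8 from the 5′ end.
miR-128-3p: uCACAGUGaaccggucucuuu
miR-218-5p: uUGUGCUUgaucuaaccaugu
miR-153-3p: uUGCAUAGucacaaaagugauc
miR-128-1-5p: cGGGGCCGuagcacugucuga
miR-128-2-5p: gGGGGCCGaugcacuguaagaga
miR-218-1-3p: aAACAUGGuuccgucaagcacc
miR-218-2-3p: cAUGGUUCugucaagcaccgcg

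The guide arms had 3 different seeds, and among the listed miRNAs with a RefSeq sequence (1165 of 1384) none shared bases 2 to 8 with any of them. The miR-128-1-5p and miR-128-2-5p arms shared their seed, whereas the passenger arms of mir-218-1 and mir-218-2 did not. The same miR-128-3p sequence is made by mmu-mir-128-1 and mmu-mir-128-2, whose hairpins share an unbroken run of 23 bases around it, with 2 bases before the 21 bases of the arm and 0 after it. Likewise miR-218-5p has the same 21 bases in both of its hairpins, which share 0 bases before it and 1 after it. The sequence of a guide arm therefore does not tell its hairpins apart. The deposited counts at the hairpins were not equal, as given at the end, and how reads were assigned was not examined. Below, 1 row, that of the hairpin with the most counts, stands for each mature miRNA.

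Total counts as deposited ranged from 8769851 (TgR PFC replicate 2) to 18385985, and from 5350259 to 11111883 with 1 row per mature miRNA. Levels are given as CPM, the deposited count scaled to a common library total by TMM over the 13 libraries. On library totals without TMM, 3 counts corresponded to 0.27 to 0.561 CPM, a floor for counting error only. Since a read covers a whole mature miRNA, no correction for length was made, but ligation efficiency differs between sequences and was not measured, so an order of miRNAs by CPM is an order of reads. The neuron markers miR-124-3p, miR-9-5p, miR-137-3p and miR-138-5p were present in all libraries, with a summed level of 102000 to 127000 CPM in the 4 groups. No defining marker of hippocampus or of PFC neurons was on the lists, so the label of the region was not checked. Replicates differed by more than sampling noise (chi-square per degree of freedom from 56.7 to 594 between libraries of a group).

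miR-128-3p was the miRNA with the most reads in each of the 13 libraries, with 14.9% to 28.9% of the counts. It was at 199100, 295800 and 287700 CPM in the FVB/N PFC libraries and at 268400, 214400, 253300 and 282100 CPM in the TgR PFC libraries. In the hippocampus it was at 186000, 142400 and 198000 CPM in FVB/N mice and at 163400, 169900 and 152100 CPM in TgR mice. The PFC libraries were thus all above the hippocampal libraries, although the lowest of the former (FVB/N PFC replicate 1) and the highest of the latter (FVB/N hippocampus replicate 3) nearly met. In these bulk tissue samples, fewer cells that express a miRNA and less of it per cell cannot be told apart. The order of the group means was FVB/N PFC (260900 ± 53650 CPM, SD, n = 3), TgR PFC (254500 ± 29220, SD, n = 4), FVB/N hippocampus (175500 ± 29280, SD, n = 3) and TgR hippocampus (161800 ± 8999, SD, n = 3), and within each region the genotypes overlapped.

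miR-218-5p ranked from 5 to 7 by reads, with 2.32% to 5.36% of the counts. It was at 30030, 37240 and 24440 CPM in FVB/N PFC and at 32070, 41960, 37410 and 32150 CPM in TgR PFC. In the hippocampus its levels were 47190, 41100 and 55880 CPM in FVB/N mice and 45100, 42540 and 34550 CPM in TgR mice. The regions stood in the opposite order to that of miR-128-3p, with FVB/N hippocampus (48050 ± 7427 CPM, SD, n = 3) above TgR hippocampus (40730 ± 5503, SD, n = 3), TgR PFC (35900 ± 4754, SD, n = 4) and FVB/N PFC (30570 ± 6417, SD, n = 3). The FVB/N hippocampal and PFC libraries did not overlap, whereas those of TgR mice did, and neighbors in the order overlapped throughout.

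miR-153-3p was less abundant, at ranks 47 to 94 and 0.077% to 0.28% of the counts. Its level was 1085, 1675 and 815 CPM in FVB/N PFC, 1042, 2719, 1506 and 940 CPM in TgR PFC, 822, 992 and 1456 CPM in FVB/N hippocampus, and 1061, 1219 and 815 CPM in TgR hippocampus. TgR PFC replicate 2, the library of lowest depth, had the highest level, and all 4 groups overlapped. Group means fell in the order TgR PFC (1552 ± 816 CPM, SD, n = 4), FVB/N PFC (1192 ± 440, SD, n = 3), FVB/N hippocampus (1090 ± 328, SD, n = 3) and TgR hippocampus (1032 ± 204, SD, n = 3). The spread between libraries of a group was largest for this guide arm, with coefficients of variation of 19.7% to 52.6%. Those of the others were 5.56% to 20.6% for miR-128-3p and 13.2% to 21% for miR-218-5p.

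**Figure D1:**
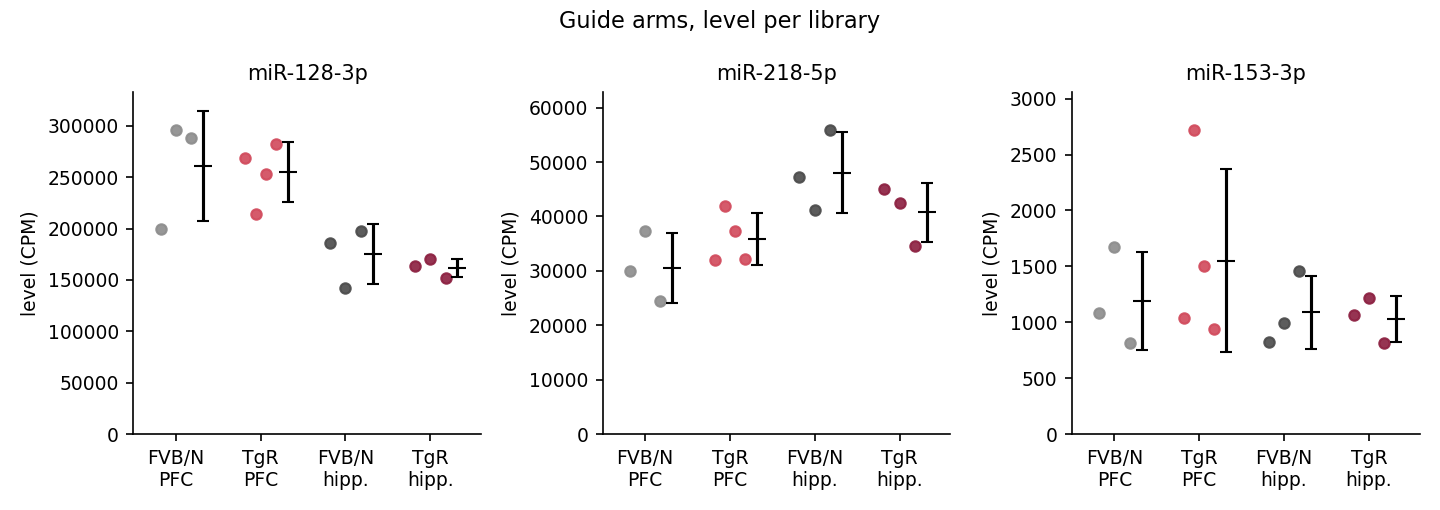
Level in CPM (vertical axis, from 0, a separate scale in each panel) of miR-128-3p, miR-218-5p and miR-153-3p in each of the 13 libraries (points, in order of replicate number), by group of genotype and region; bars are the mean and SD. All 7 PFC points of miR-128-3p lie at or above 199100 CPM and all 6 hippocampal points at or below 198000 CPM, while the miR-153-3p groups overlap.

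The passenger arms were far rarer. miR-128-1-5p had 98 to 256 counts per library (12.49 to 28.65 CPM) and miR-218-1-3p had 10 to 34 counts, both in every library. miR-218-2-3p had 4 to 20 counts. For miR-128-2-5p (0 to 8 counts) and miR-153-5p (0 to 12 counts), 12 of 13 libraries held a read, and TgR hippocampus replicate 1 held none of either, where 3 counts would allow up to 0.27 CPM. These arms were too low for a test in any comparison. Thus 6 of the 8 mature miRNAs passed the filter on low counts in at least 1 comparison, and miR-218-2-3p was dropped by it in the PFC and in the FVB/N comparison of regions.

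Transgenic and parent strain mice were first compared within each region. An effect of AChE-R overexpression cannot be told apart here from any other difference between TgR mice and the parent strain. In the hippocampus, none of the 6 tested mature miRNAs had an adjusted p under 0.05 (quasi-likelihood test of edgeR, Benjamini-Hochberg over all miRNAs tested), where 4.85% of the 619 tested miRNAs did. At an unadjusted p under 0.05 there were also 0 of 6, against 17.4% of miRNAs, and DESeq2 called 0. None had groups that did not overlap, as 22.3% of tested miRNAs had. The log2 fold change of TgR against FVB/N was -0.14 for miR-128-3p (95% confidence interval -0.46 to 0.18), -0.26 for miR-218-5p (-0.61 to 0.09) and -0.10 for miR-153-3p (-0.63 to 0.43). The passenger arms were at 0.23 for miR-128-1-5p, 0.49 for miR-218-1-3p and 0.18 for miR-218-2-3p, with adjusted p up to 0.888 (edgeR).

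In the PFC, 0 of 5 tested members passed (edgeR), with 0.159% of 628 miRNAs called, 0 of 5 at an unadjusted p under 0.05 (3.18% of miRNAs), and 0 with DESeq2. None had groups that did not overlap, against 4.78% of the miRNAs tested. The log2 fold change was -0.04 for miR-128-3p (95% confidence interval -0.37 to 0.29), 0.23 for miR-218-5p (-0.14 to 0.59) and 0.38 for miR-153-3p (-0.53 to 1.28). For miR-153-3p the value rested on TgR PFC replicate 2, without which it was -0.05. miR-128-1-5p was at -0.17 and miR-218-1-3p at -0.15.

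The genotype effect was also compared between the regions, as the hippocampal minus the PFC log2 fold change over all 13 libraries. None of the 6 tested members differed (edgeR, adjusted p from 0.588 to 0.994), where 0.464% of 647 miRNAs were called, and there were 0 at an unadjusted p under 0.05 (8.5% of miRNAs) and 0 with DESeq2. The difference for miR-218-5p was -0.47 (95% confidence interval -0.96 to 0.02, adjusted p = 0.588, edgeR) and that for miR-128-3p was -0.08 (-0.54 to 0.38).

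**Figure D2:**
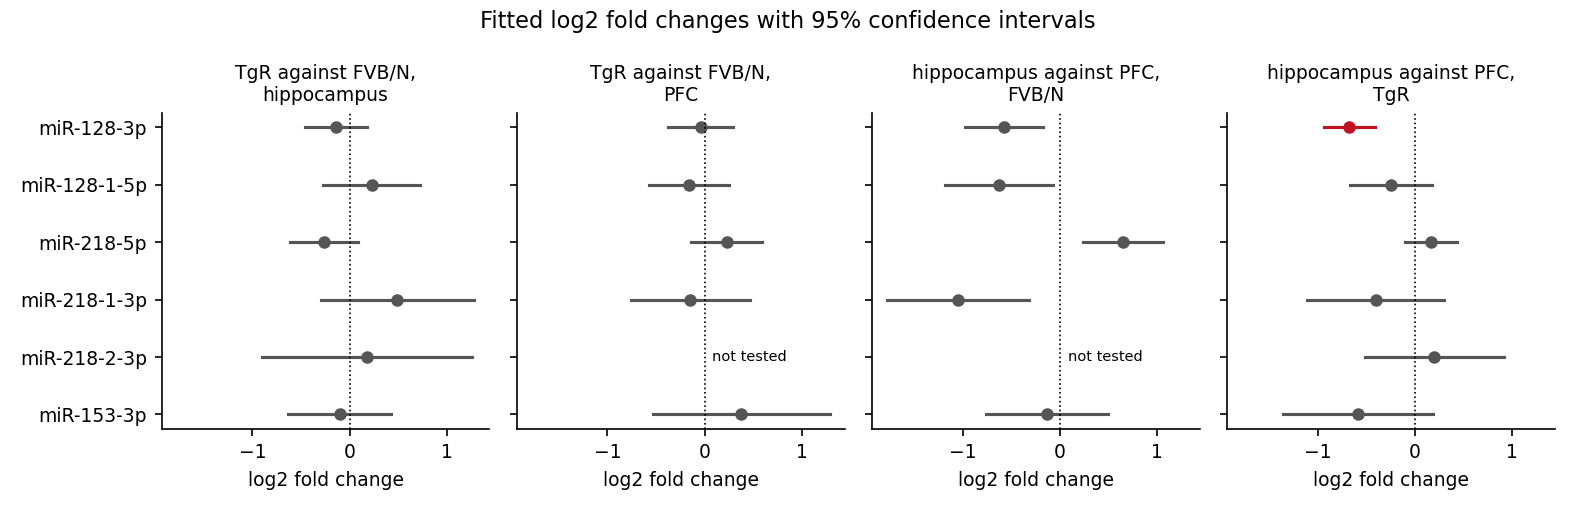
Fitted log2 fold change (horizontal axis) of each tested member in the 4 comparisons of groups (panels), with its 95% confidence interval as a line; red marks an adjusted p under 0.05 (edgeR). Every interval of the genotype comparisons includes 0, and miR-128-3p between TgR hippocampus and TgR PFC, at -0.68, is the value in red.

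Hippocampus and PFC were then compared within each genotype. miR-128-3p was lower and miR-218-5p higher in the hippocampus of FVB/N mice, in all 3 libraries of each region, but neither passed after adjustment. Of 5 tested members 0 were called (edgeR) and 0 with DESeq2, where 3.58% of 615 miRNAs were called by edgeR. At an unadjusted p under 0.05 there were 4 of 5, against 16.6% of miRNAs, and the same 4 had regions that did not overlap, against 21.8% of miRNAs tested. The log2 fold change of hippocampus against PFC was -0.58 for miR-128-3p (SE 0.18, adjusted p = 0.124, edgeR) and 0.65 for miR-218-5p (SE 0.19, adjusted p = 0.0944, edgeR). The passenger arms miR-218-1-3p (-1.05, SE 0.33, adjusted p = 0.124, edgeR) and miR-128-1-5p (-0.63, SE 0.25, adjusted p = 0.233, edgeR) had no overlap either, while miR-153-3p was at -0.13. The 2 guide arms miR-128-3p and miR-218-5p did pass when all 13 libraries shared a fit (adjusted p = 0.0435 and 0.034, edgeR) and without the filter on low counts (0.0329 and 0.0221), and miR-128-3p without FVB/N PFC replicate 1 (0.0332).

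In TgR mice miR-128-3p fell by 0.68 on the log2 scale in the hippocampus against the PFC (SE 0.12, adjusted p = 0.00657, edgeR), lower in 3 of 3 hippocampal libraries than in any of the 4 PFC libraries. It was the 1 called among 6 tested members, where 13.6% of 633 miRNAs were called and 27.8% had regions that did not overlap. This call held in 15 of 15 alternatives, with log2 fold changes from -0.76 to -0.57. miR-218-5p was at 0.17 (95% confidence interval -0.10 to 0.43, adjusted p = 0.403, edgeR), miR-153-3p at -0.59 (-1.36 to 0.18) and miR-218-1-3p at -0.40 (-1.11 to 0.30), none of which passed. The regional difference of miR-128-3p was not shown to differ between genotypes, since its contrast of contrasts was the -0.08 given above (adjusted p = 0.962, edgeR).

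Averaged over both genotypes, in a contrast added after the data had been seen, 3 of 6 tested members changed between the regions, where 19.2% of 647 miRNAs were called. miR-128-3p was lower in the hippocampus by a log2 fold change of -0.61 (SE 0.11, adjusted p = 0.00146, edgeR), miR-218-5p was higher at 0.42 (SE 0.11, adjusted p = 0.0190, edgeR), and miR-218-1-3p was lower at -0.72 (SE 0.22, adjusted p = 0.0342, edgeR). miR-128-1-5p, the passenger arm of mir-128-1, was at -0.42 (adjusted p = 0.0574, edgeR), miR-218-2-3p at 0.23 and miR-153-3p at -0.36 (adjusted p = 0.368, edgeR). miR-128-1-5p passed in 6 of 20 alternatives, namely DESeq2 (-0.46, adjusted p = 0.0171), which called 4 members, its size factors in edgeR (-0.46, 0.0386), counts summed over hairpins (-0.48, 0.0334), and without FVB/N PFC replicate 1 (-0.51, 0.0264), TgR PFC replicate 2 (-0.47, 0.0369) or FVB/N hippocampus replicate 2 (-0.50, 0.043). The miR-128-3p call held in 20 of 20 alternatives, with values from -0.71 to -0.57. miR-218-5p missed the threshold without FVB/N hippocampus replicate 3 (0.33, adjusted p = 0.0541), TgR hippocampus replicate 1 (0.37, 0.0667) or TgR hippocampus replicate 2 (0.38, 0.0504), and when its counts were summed over hairpins (0.35, 0.0612, edgeR). miR-218-1-3p, with 34 counts at most, held in 12 of 20 alternatives. It missed the threshold with no filter (-0.71) and without FVB/N PFC replicate 3 (-0.64), TgR PFC replicates 1 (-0.71) or 3 (-0.74), FVB/N hippocampus replicates 1 (-0.68) or 3 (-0.72), or TgR hippocampus replicates 1 (-0.65) or 3 (-0.67).

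Markers of other cells also differed between the regions and, in the hippocampus, between genotypes. The 3 oligodendrocyte markers (miR-219a-5p, miR-219a-2-3p and miR-338-3p) summed to 603 to 973 CPM in the PFC and 1480 to 3690 CPM in the hippocampus, and the 7 markers of choroid plexus and ciliated cells to 993 to 1390 CPM in the PFC, 1570 to 2200 CPM in FVB/N and 2580 to 9650 CPM in TgR hippocampus. Their part in the differences of miR-128-3p and miR-218-5p was not tested. All members of both lists were detected, as were the 4 neuron markers, of which 0 passed in any of the 6 contrasts (edgeR). Red blood cell markers summed to 814 to 1090 CPM in TgR hippocampus and 1640 to 3810 CPM elsewhere. In the hippocampus, 5 of 7 choroid plexus and ciliated cell markers and 1 of 3 oligodendrocyte markers were higher in TgR mice (edgeR). Of the red blood cell markers 3 of 4 were lower, and of those of tissues outside the brain 2 of 4 tested were higher. Over all miRNAs 4.85% were called. The part of these markers in the genotype values of the members was not tested. White blood cell and microglia markers summed to 772 to 1080 CPM in the PFC and 618 to 735 CPM in the hippocampus, without overlap. Over both genotypes, 3 of these 4 and 3 of the 4 red blood cell markers were lower in the hippocampus (edgeR), the direction of miR-128-3p. Higher there, the direction of miR-218-5p, were 3 of 3 oligodendrocyte and 6 of 7 choroid plexus and ciliated cell markers. Over all miRNAs 19.2% were called in this contrast. The part of the blood cell markers in the miR-128-3p difference was not tested either. Endothelial and vessel markers summed to 22200 to 31400 CPM in the PFC and 17400 to 28800 CPM in the hippocampus, and markers of tissues outside the brain to 306 to 2030 CPM over the groups, the highest of the last in TgR PFC replicate 4.

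Ratios within a library do not depend on the scaling between libraries. The ratio of miR-128-3p to miR-218-5p counts, chosen after the data had been seen, was 6.63, 7.94 and 11.8 in FVB/N PFC and 8.37, 5.11, 6.77 and 8.78 in TgR PFC. In the hippocampus it was 3.94, 3.46 and 3.54 in FVB/N mice and 3.62, 4.00 and 4.40 in TgR mice. All hippocampal libraries were below all PFC libraries. The mean difference of hippocampus from PFC was -1.03 on the log2 scale (exact permutation of regions within genotype, two-sided p = 0.00286, 0.0386 adjusted over 18 ratio tests), at -1.23 in FVB/N and -0.83 in TgR mice. Between genotypes the mean difference was -0.07 (exact permutation p = 0.697).

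The ratio of miR-218-5p to miR-153-3p, added in the same way and sharing the miR-218-5p counts, was 15.4 to 34.2 in the PFC and 34.9 to 57.4 in the hippocampus, again without overlap. Its mean difference was 0.71 (exact permutation, two-sided p = 0.00429, adjusted p = 0.0386), at 0.77 in FVB/N and 0.66 in TgR mice. TgR PFC replicate 2 had the lowest ratio, while the other PFC libraries lay between 22.2 and 34.2. The ratio of miR-128-3p to miR-153-3p differed by -0.31 (exact permutation p = 0.349), and the regions overlapped. The smallest p that the 700 assignments can give is 0.00143, and the assignments take the libraries of the regions as separate mice. Both adjusted values were above 0.05 when FVB/N PFC replicate 1 or 2, FVB/N hippocampus replicate 1, or TgR hippocampus replicate 1 or 3 was left out, with differences of -1.12 to -0.99 for the first ratio and 0.63 to 0.73 for the second, in tests with fewer assignments.

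**Figure D3:**
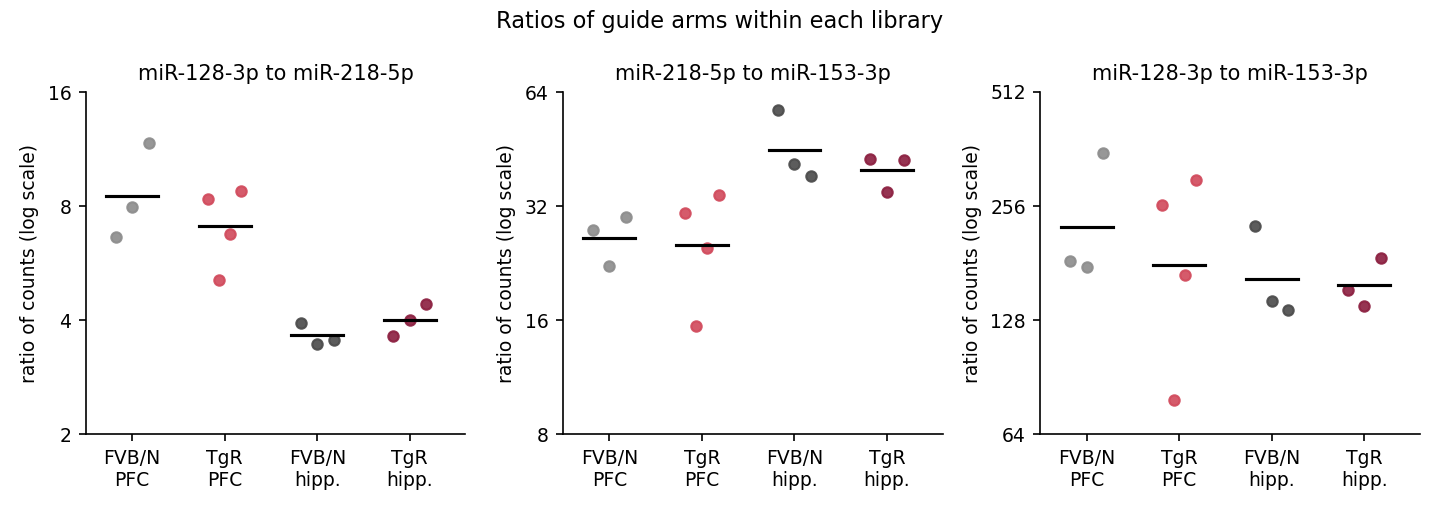
Ratio of the counts of each pair of guide arms within a library (vertical axis, log scale), by group; points are libraries and lines are geometric means. The hippocampal points of miR-128-3p to miR-218-5p lie between 3.46 and 4.40, below the PFC points at 5.11 to 11.8, and those of miR-218-5p to miR-153-3p lie above the PFC points.

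Guide arms far exceeded their passenger arms in every library. miR-128-3p had 7773 to 14230 times the summed counts of its passenger arms, miR-218-5p had 5140 to 28530 times and miR-153-3p had 780 to 23490 times, with 0.5 counts added to each side, so that the upper end for miR-153 is that of a library with no miR-153-5p read. For miR-128 the difference of this ratio between the regions did not pass (-0.17 on the log2 scale, exact permutation p = 0.283, adjusted p = 0.566 over 10 planned ratio tests). For miR-218 it was 8074, 9623 and 5140 in FVB/N PFC and 7830 to 10930 in TgR PFC, and 23880, 10580 and 28530 in FVB/N and 15360, 9450 and 11330 in TgR hippocampus. The hippocampal ratios were mostly higher but overlapped with those of the PFC, and the mean difference of 0.89 did not pass after adjustment (exact permutation p = 0.00714, adjusted p = 0.0714). It passed without TgR hippocampus replicate 2 (0.97, adjusted p = 0.0167, exact permutation). For miR-153 the difference was 0.38 (exact permutation p = 0.629). Between genotypes, adjusted p was 0.698 for miR-128 and miR-218 and 0.879 for miR-153 (exact permutation).

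The passenger arms are the arms whose sequences tell the hairpins apart. The ratio of miR-218-1-3p, from the Slit2 intron, to miR-218-2-3p, from the Slit3 intron, was taken with 0.5 counts added to each arm. It was 2.60 to 4.06 in FVB/N PFC and 2.12 to 3.93 in TgR PFC. In the hippocampus it was 0.902 to 2.56 in FVB/N and 1.26 to 2.36 in TgR mice. The ratio of the arms was thus lower in most hippocampal libraries, with overlap. The mean difference was -0.79 on the log2 scale (exact permutation p = 0.0171, adjusted p = 0.0857), which did not pass, but did without TgR hippocampus replicate 2 (-0.93, adjusted p = 0.0167, exact permutation). FVB/N hippocampus replicate 2, with 18 counts of miR-218-1-3p and 20 of miR-218-2-3p, was the 1 library in which the Slit3 arm was the more frequent. Between genotypes the difference was -0.17 (exact permutation p = 0.576).

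miR-128-2-5p, from the Arpp21 intron, was a small fraction of miR-128-1-5p, from the R3hdm1 intron, in every library. With 0.5 counts added to each arm, the ratio lay between 0.00225 and 0.0457. The lowest value was that of TgR hippocampus replicate 1, which had 0 reads of miR-128-2-5p. Summed over the libraries there were 46 reads of the former and 2398 of the latter. The ratio differed by -0.79 between the regions (exact permutation p = 0.227) and by -1.12 between genotypes (exact permutation p = 0.116), neither of which passed. How often each passenger arm survives was not measured, so these ratios are not the shares in which the hairpins yield miR-128-3p.

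**Figure D4:**
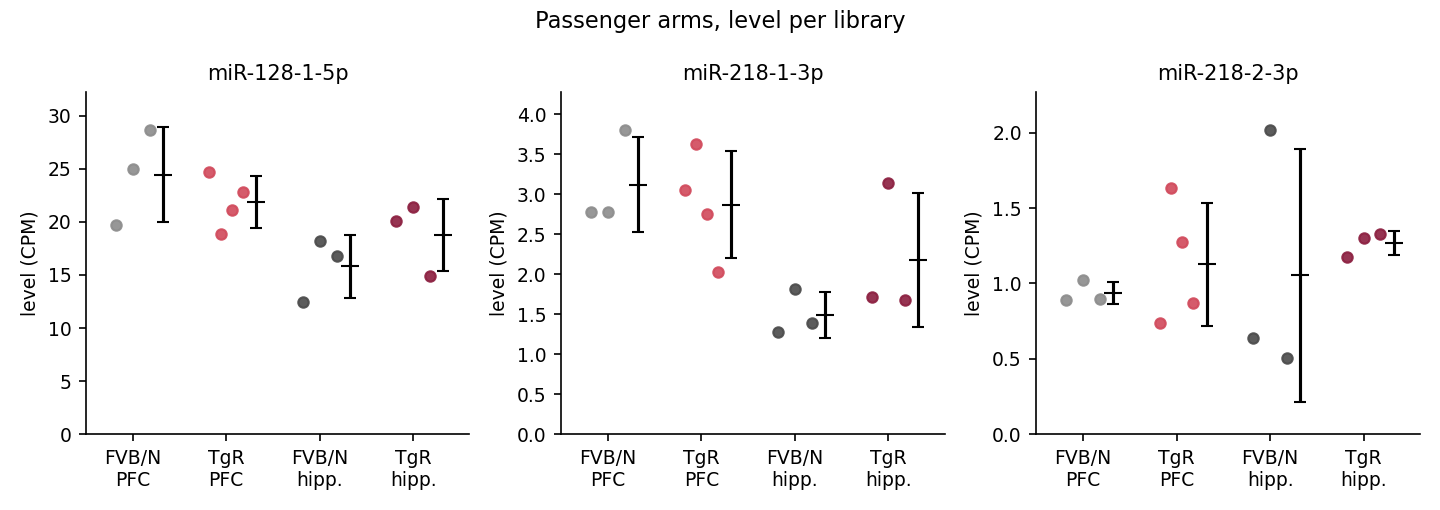
Level in CPM (vertical axis, from 0, a separate scale in each panel) of the passenger arms miR-128-1-5p, miR-218-1-3p and miR-218-2-3p in each library (points), by group, with mean and SD as bars. miR-218-1-3p lies at 2.78 to 3.81 CPM in FVB/N PFC and at 1.28 to 1.82 CPM in FVB/N hippocampus, while miR-218-2-3p overlaps between genotypes in each region and between regions in each genotype.

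The 3 guide arms did not move in parallel. The SD of the log2 ratio over the 13 libraries was 0.594 between miR-128-3p and miR-218-5p, 0.559 between miR-128-3p and miR-153-3p, and 0.487 between miR-218-5p and miR-153-3p. Among 385 other miRNAs with a mean of at least 10 CPM, the pattern most like miR-128-3p was that of miR-674-3p (SD 0.0947, mean level 979 CPM), followed by miR-340-3p (0.153) and miR-541-5p (0.156), where the median over the 385 was 0.495. For miR-218-5p they were miR-195a-3p (0.182), miR-1983 (0.211) and miR-455-5p (0.216), against a median of 0.427. For miR-153-3p they were miR-376b-5p (0.214), miR-380-3p (0.22) and miR-376b-3p (0.263), all encoded in the imprinted Dlk1-Dio3 cluster, against a median of 0.587. These values describe 13 libraries that share region and genotype groups, and carry no test.

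Other neuronal miRNAs were set beside the members, 15 of 16 on the list being tested. In the genotype comparisons 0 of 15 were called in either region (edgeR). Over all miRNAs tested, 4.85% were called in the hippocampus and 0.159% in the PFC. Median log2 fold changes of the list were 0.08 in the hippocampus and -0.07 in the PFC, where those of all miRNAs were -0.00143 and 0.00283. Between the regions of FVB/N mice, miR-7a-5p was higher in the hippocampus (1.12, SE 0.18, adjusted p = 0.00614, edgeR). There miR-132-3p, an activity-regulated miRNA that represses acetylcholinesterase, was lower (-1.11, SE 0.18, adjusted p = 0.00614, edgeR). In TgR mice 0 of 15 were called. The shares called over all miRNAs tested were 3.58% in FVB/N and 13.6% in TgR mice. Over both genotypes 1 was higher, miR-7a-5p at 0.79. In the same contrast 3 were lower, miR-132-3p at -0.79, miR-212-3p from the same primary transcript at -0.78 and miR-129-5p at -0.31. The list median was -0.09 against 0.02 over all miRNAs, of which 19.2% were called.

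Of the 25 other intronic miRNAs listed, 24 were tested. In the hippocampus 4 were higher and 1 lower in TgR mice, where 4.85% of all tested miRNAs were called (edgeR). The list median was 0.02. Of the 4 higher ones, 3 (miR-448-3p, miR-338-3p and miR-204-5p) are also on the choroid plexus or oligodendrocyte lists. In the PFC, where 0.159% of all tested miRNAs were called, 1 was lower, miR-383-5p (-1.73), also the 1 lower in the hippocampus (-1.57). Between the regions 1 was lower in the hippocampus of FVB/N mice, miR-335-5p at -1.23, and 6 were higher and 2 lower in TgR mice. Of all tested miRNAs, 3.58% were called in FVB/N and 13.6% in TgR mice. Over both genotypes 6 were higher and 3 lower, where 19.2% of all tested miRNAs were called. Those of smallest adjusted p were miR-204-5p (1.385), miR-338-3p (1.137), miR-448-3p (2.032) and miR-103-3p (0.50), all higher in the hippocampus. Of these, miR-204-5p, miR-338-3p and miR-448-3p are the choroid plexus or oligodendrocyte markers named above. miR-103-3p and miR-107-3p (0.55), also higher, lie in introns of the pantothenate kinase genes. Among those lower was miR-149-5p (-0.48).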

How the data were processed

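Small RNA from hippocampus and PFC of TgR and FVB/N mice was sequenced, and the authors aligned the reads to miRBase 21 with miRExpress 2.0 under default parameters after FastQC. They deposited raw read counts per hairpin and mature miRNA for each library, without normalization. The 71 miRNAs that have several hairpins appear under each of them, which can inflate the totals or divide their reads. Which of these holds was not examined. Here 1 row per mature miRNA (the hairpin with the most counts) was kept and a missing row was taken as 0. Ratios between arms used these rows and were not repeated on counts summed over hairpins. The sample titles gave genotype, region and replicate. Whether replicates of different regions share mice is not stated, and p-values measure the spread between these samples.

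Counts were fitted with edgeR 4.0.16 in R 4.3.3 (TMM, filterByExpr with a minimum count of 10, quasi-likelihood test), for each comparison on its own groups, and for the difference between regions on 13 libraries. Benjamini-Hochberg adjustment was over all miRNAs tested, with a threshold of 0.05. The study used DESeq2, which is an alternative here (1.42.0). Within-library log2 ratios, with 0.5 counts added to each arm, were tested by exact permutation within strata, two-sided, and adjusted over 10 planned ratio tests, or over 18 for the 8 tests added later. Code was tested on simulated data.

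All arms of the 5 hairpins are named, with the 3 miRNAs of smallest SD of the log2 CPM ratio to each guide arm, and called members of the lists. The members and lists (neuronal, intronic and cell type markers) were chosen with earlier results of these data known. Alternatives were DESeq2, its size factors, library size only, no filter, all hairpin rows or their sum, a joint fit, the replicate block, a pseudocount of 5, group medians, and each library left out. The contrast over both genotypes and the ratios between guide arms were chosen after seeing the data. Positions are from GENCODE M21 (GRCm38) and sequences from RefSeq.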

Additional observations from a re-analysis of the deposited data

Results flagged for a closer look

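The log2 ratio of miR-218-1-3p to miR-218-2-3p in TgR PFC was flagged because 1 of its 4 libraries lay far from the others. Replicate 1, with 29 and 7 counts, had a ratio of 3.93 after 0.5 counts were added to each arm. The other 3 lay between 2.12 and 2.26, so that the gap of replicate 1 took 0.894 of the range on the log2 scale, above Dixon's limit. It was the 1 flag among 17 groups of 4 libraries, and chance flags about 1 group in 20. The cause was not tested.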

How the results depend on the processing

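Of counts of called members, 93 of 98 alternatives stayed within 1.5 times. The FVB/N regional comparison called 2 instead of 0 members with all 13 libraries in a fit and with no filter, and 0 to 1 with a library left out. The contrast over both genotypes called 1 to 4 members with a library left out. Among fold changes of members, 513 of 559 kept direction and side of the threshold. Those that turned did not pass the threshold. Library size only put the median of all miRNAs for the difference between regions at 0.146, against 0.0274 in the main fit. With it, the genotype effect on miR-153-3p in the hippocampus was 0.00649. The difference between regions was then 0.0334 for miR-128-3p and 0.0847 for miR-218-2-3p, the last being 0.048 with no filter.

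With libraries left out in turn, hippocampal genotype effects ranged from -0.28 to 0.19 for miR-153-3p and -0.12 to 1.10 for miR-218-2-3p, and PFC effects from -0.193 to 0.0567 for miR-128-3p, -0.0474 to 0.697 for miR-153-3p and -0.272 to 0.024 for miR-218-1-3p. The difference between regions ranged from -0.218 to 0.0685 for miR-128-3p and -0.32 to 0.91 for miR-218-2-3p, the FVB/N regional effect on miR-153-3p from -0.39 to 0.20, and the effect over both genotypes on miR-218-2-3p from -0.26 to 0.35.

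By group medians, ratios of hippocampus to PFC were -1.04 (adjusted p = 0.0643, exact permutation) for miR-128-3p to miR-218-5p and 0.599 (adjusted p = 0.0643, exact permutation) for miR-218-5p to miR-153-3p. Genotype differences turned to 0.0477, 0.0158 and 0.142 for the ratios of miR-128-3p to miR-218-5p, of miR-218-5p to miR-153-3p and of miR-128-3p to miR-153-3p, and to -0.113 for miR-153 guide to passenger. With libraries left out, regional ratios ranged from -1.12 to -0.91 (miR-128-3p to miR-218-5p), 0.60 to 0.79 (miR-218-5p to miR-153-3p), -0.95 to -0.58 (mir-218-1 to mir-218-2), 0.75 to 1.11 (miR-218 guide to passenger) and -0.21 to 0.85 (miR-153 guide to passenger). Genotype ratios ranged from -0.209 to 0.00902 (miR-128 guide to passenger), -0.46 to 0.61 (miR-153 guide to passenger), -0.156 to 0.0506 (miR-128-3p to miR-218-5p) and -0.314 to 0.00713 (miR-128-3p to miR-153-3p). The cause was not tested.

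Correlations of the deviations of same-numbered libraries ran from -0.21 to 0.46, and between the regions from -0.2 to 0.45. Differently numbered libraries were not set beside them, so these values cannot decide whether same-numbered libraries share mice. With the replicate block, 0 members were called for genotype in the hippocampus, the PFC or the difference, 0 and 1 for region in FVB/N and TgR, and 3 over both genotypes, while hippocampal genotype calls over all miRNAs went from 30 to 17. Over all alternatives, calls over all miRNAs ranged from 2 to 64 against 30 for genotype in the hippocampus, from 8 to 52 against 22 and from 43 to 125 against 86 for region in FVB/N and TgR mice, from 2 to 16 against 3 for the difference, and from 88 to 132 against 124 over both genotypes, and stayed at 1 for genotype in the PFC. For FVB/N PFC, numbers in the deposited data differ from the titles. Depth limits the passenger arms, with 34 counts at most for those of miR-218, whereas the spread between libraries limits the guide arms.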

Other observations

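The deposited counts of miR-128-3p were not equal at its hairpins, although its sequence is the same in both. The row of mmu-mir-128-1 held 1.553 to 1.687 times the count of the row of mmu-mir-128-2 over the 13 libraries. The 3 TgR hippocampal libraries had the lowest values, 1.553 to 1.57, below the 1.585 to 1.687 of FVB/N hippocampus and the 1.59 to 1.625 of the PFC, and the mean genotype difference over both regions was -0.03 on the log2 scale (exact permutation p = 0.0657, adjusted p = 0.237), which did not pass. For miR-218-5p, the row of mmu-mir-218-1 held 0.900 to 0.957 times the count of that of mmu-mir-218-2. How the aligner assigned such reads was not examined here.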
